A study of Drosophila melanogaster with 8 samples.

Results

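The circadian clock of Drosophila is described here by the RNA of 8 genes, Clk, cyc, per, tim, cry, vri, Pdp1 and cwo, in the midguts of aged flies fed with quercetin (Que), a plant flavonoid, or with its solvent DMSO. The genes were taken by name from a table of 19299 features, and all 8 were found once. RNA-seq was performed on 8 samples, 4 per group, each a pool of 200 whole midguts from female wild-type flies (WT), 40 to 50 days old by the labels. Que was given at 10 µM in standard food from day 26 for 14 days, and the control food held DMSO alone. All flies were kept under a daily light and dark cycle, and the hour of dissection is not given in the sources used here. Each sample had 27253832 to 35619139 reads assigned to genes, and a whole midgut mixes all its cell types, so fewer cells of a type and less RNA per cell cannot be told apart.

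The fly clock is a set of feedback loops. The proteins CLK and CYC bind DNA together and switch on per, tim, vri, Pdp1 and cwo, while PER and TIM enter the nucleus and shut CLK and CYC off. In a second loop VRI represses and PDP1 activates the Clk gene, CWO damps the targets of CLK and CYC, and CRY is the blue-light receptor that sends TIM to destruction in the morning. In flies kept under light and dark, per, tim and vri RNA peak around the early night, Clk RNA peaks at the opposite time of day, near dawn, and cyc RNA hardly cycles. In the adult midgut this clock runs in stem cells and enterocytes, where it times the response of stem cells to damage.

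Levels are given in RPKM, read numbers divided by the exonic length of the gene and by the assigned reads of the sample, so that genes can be compared per length. Over the 8 samples, cyc was the most abundant member with 87.5 ± 11.5 RPKM (SD, n = 8), followed by tim with 65.1 ± 6.62 RPKM and vri with 47.9 ± 6.90 RPKM. Next came cwo (44.2 ± 6.13 RPKM), Pdp1 (39.5 ± 3.24 RPKM), per (23.5 ± 4.31 RPKM) and cry (11.3 ± 0.915 RPKM). Clk had the lowest level of the 8, at 3.12 ± 0.903 RPKM. Within each of the 8 samples cyc exceeded tim and tim exceeded vri, although their ranges over samples overlapped. The neighbours vri and cwo (7 of 8 samples) and cwo and Pdp1 (6 of 8 samples) were not separated beyond their spread. The lower steps were wider, since Pdp1 exceeded per, per exceeded cry and cry exceeded Clk in every sample, with no overlap of their ranges. Clk rested on 237 to 622 reads per sample and cry on 615 to 797, while the 6 other members had at least 2599.

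No member differed between Que and DMSO beyond the spread of the samples. The groups were compared on log2(RPKM + 0.1) with limma over 13249 genes, and fold changes are given on that scale. Of the 8 members, 0 had a Benjamini-Hochberg adjusted p under 0.05, as had 0% of all genes tested. At an unadjusted p under 0.05 the count was 0 of 8, against 3.62% of all genes, and it was also 0 of 8 with limma voom on the recovered reads. In all 8 genes the groups overlapped. Among all genes, 0.876% had every Que sample above every DMSO sample and 1.26% every Que sample below. The log2 fold change was positive in 3 members and negative in 5, with a median of −0.05 against −0.02 over all genes tested. The exact permutation test of single genes, two-sided, was run on the 8 members and on the 33 other clock pathway genes described below. It was not adjusted and allows no p below 0.0286.

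**Figure D1:**
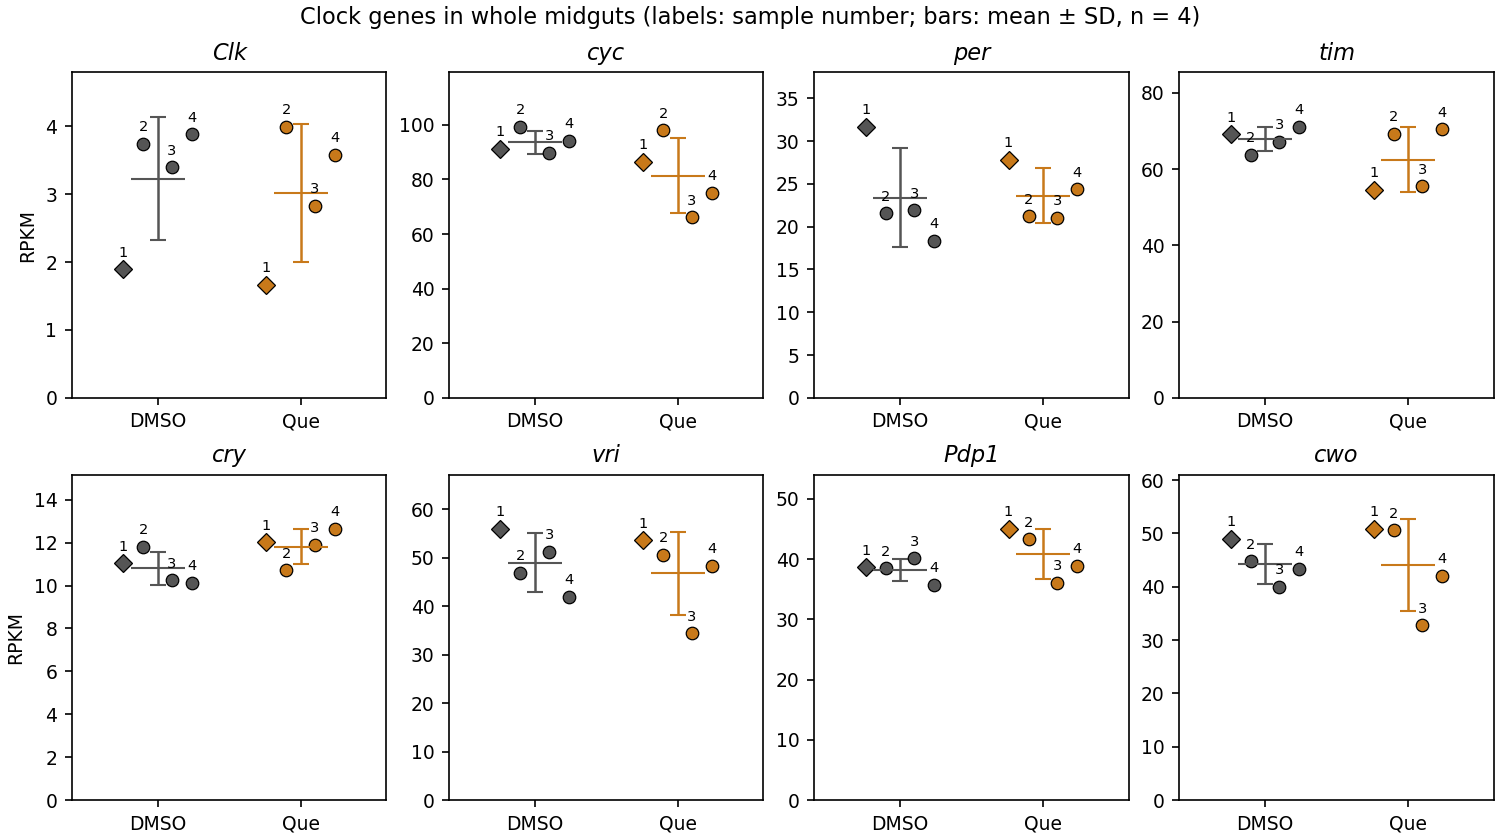
RPKM of each of the 8 clock genes in the 4 DMSO and 4 Que samples, with the sample number beside each point, diamonds for the samples numbered 1, and the mean ± SD of each group. The groups overlap in every panel, and the samples numbered 1 are the lowest for Clk (1.67 and 1.90 RPKM) and the highest for per (27.8 and 31.7 RPKM).

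Of the activators, Clk (Dmel_CG7391, FBgn0023076) lies on chromosome 3L from 7763233 to 7775603 on the minus strand and has 5 annotated transcripts. It had 1.90, 3.74, 3.40 and 3.88 RPKM in DMSO 1 to 4 and 1.67, 3.996, 2.83 and 3.58 RPKM in Que 1 to 4. The sample numbered 1 was the lowest of its group in both cases, and both lay below the 6 other samples. The group means were 3.23 ± 0.911 RPKM with DMSO and 3.02 ± 1.02 RPKM with Que (SD, n = 4 each). The log2 difference, Que minus DMSO, was −0.11 (SE, standard error, 0.31) with a 95% interval from −0.80 to 0.58 (exact permutation test, p = 0.657). Its within-group SD of 0.50 on the log2 scale was larger than that of 93.3% of the 10191 genes with at least 10 reads in each sample, whose median was 0.23. Without Que 1 the log2 fold change of Clk was 0.14, so its sign rested on that sample. Without DMSO 1 it was −0.34, with the sign kept and a larger size.

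The partner gene cyc (Dmel_CG8727, FBgn0023094, chromosome 3L, 19813770 to 19815938, minus strand) has 1 annotated transcript. Its values were 91.2, 99.4, 89.7 and 94.1 RPKM in DMSO 1 to 4 and 86.4, 98.0, 66.2 and 75.1 RPKM in Que 1 to 4. The Que samples 1, 3 and 4 lay below all DMSO samples, while Que 2 lay among them. This was the largest fold change of the 8 members, at −0.22 on the log2 scale with an SE of 0.12 (adjusted p = 0.946 by limma, p = 0.171 by the exact permutation test). Its 95% interval ran from −0.49 to 0.06. The change was −0.12 without Que 3 and −0.31 without Que 2, where the interval ran from −0.56 to −0.06 (limma, unadjusted p = 0.0200 and adjusted p = 0.540). Without Que 2, 1195 of 13249 genes had an unadjusted p under 0.05 (limma), against 479 with all samples.

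Of the repressors, per (Dmel_CG2647, FBgn0003068) lies on chromosome X from 2685580 to 2692780 on the plus strand. It had 31.7, 21.6, 21.9 and 18.4 RPKM in DMSO 1 to 4 and 27.8, 21.2, 21.1 and 24.3 RPKM in Que 1 to 4. Here DMSO 1 and Que 1 were the highest samples, above all 6 others, the reverse of Clk. The group means were close, at 23.4 ± 5.76 RPKM for DMSO and 23.6 ± 3.19 RPKM for Que (SD, n = 4 each). This gave 0.03 on the log2 scale, with an SE of 0.17 (exact permutation test, p = 0.943). Its 95% interval ran from −0.35 to 0.42. The fold change was −0.05 without Que 1, −0.07 without DMSO 4 and 0.19 without DMSO 1. The gene shares 49 exonic bases with dyw on the other strand, which had 0 to 8 reads per sample.

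The other repressor, tim (Dmel_CG3234, FBgn0014396, chromosome 2L, 3493986 to 3508119, minus strand), has 10 annotated transcripts from 3 start sites. It had 69.1, 63.7, 67.1 and 71.2 RPKM in DMSO 1 to 4 and 54.6, 69.3, 55.5 and 70.5 RPKM in Que 1 to 4. Que 1 and Que 3 were thus low together, and the other 6 samples stood within 63.7 and 71.2 RPKM. Unlike per, tim was not raised in the samples numbered 1. Its log2 fold change of −0.13 had an SE of 0.11 (exact permutation test, p = 0.343), with a 95% interval from −0.37 to 0.12. In Que 1 and Que 3 the values of longer genes were lower than those of shorter ones, with a Spearman's rho across genes of −0.24 in each between gene length and the deviation from the mean of the 8 samples. With each sample's trend on length removed, the log2 fold change of tim was −0.03. The whole 151 bases of the small RNA gene Or-CD16, with 343 to 982 reads per sample, lie in a tim exon on the same strand. These are few beside the 9355 to 14767 reads of tim.

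The light receptor gene cry (Dmel_CG3772, FBgn0025680, chromosome 3R, 19212154 to 19215442, plus strand) was the steadiest member. It had 11.0, 11.8, 10.2 and 10.1 RPKM in DMSO 1 to 4 and 12.0, 10.7, 11.9 and 12.6 RPKM in Que 1 to 4. Of the Que samples, 3 lay above all DMSO samples and Que 2 did not. On the log2 scale the change was 0.13 with an SE of 0.10 and a 95% interval from −0.09 to 0.35 (exact permutation test, p = 0.143). Its within-group SD was 0.10, smaller than in most genes, since only 6.36% had a smaller one. The gene shares 329 exonic bases with the RNA gene CR46393 on the same strand, which had 79 to 189 reads, so reads from these bases could come from either gene. It also shares 9 bases with vib on the other strand, which had 3431 to 4834 reads.

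In the second loop, vri (Dmel_CG14029, FBgn0016076, chromosome 2L, 5288944 to 5311223, plus strand) encodes the repressor of Clk. It had 55.9, 46.9, 51.2 and 41.9 RPKM in DMSO 1 to 4 and 53.5, 50.6, 34.4 and 48.3 RPKM in Que 1 to 4. As with per, DMSO 1 and Que 1 were above the 6 other samples, and Que 3 was the lowest of all. Between the groups vri changed by −0.08 on the log2 scale, with an SE of 0.15 (exact permutation test, p = 0.686), and by 0.06 without Que 3. The 95% interval ran from −0.42 to 0.26.

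Pdp1 (Dmel_CG17888, FBgn0016694, chromosome 3L, 7811458 to 7867369, minus strand) encodes the activator of Clk and has 13 annotated transcripts from 4 start sites. In flies only some of its transcripts belong to the clock, and the table gives their sum. It had 38.6, 38.5, 40.1 and 35.8 RPKM in DMSO 1 to 4 and 45.0, 43.3, 36.1 and 38.9 RPKM in Que 1 to 4. Que 1 and Que 2 exceeded every DMSO sample and Que 3 and Que 4 did not. Its log2 fold change was 0.09 with an SE of 0.10 and a 95% interval from −0.13 to 0.30 (exact permutation test, p = 0.257). With the length trend removed it was 0.22, with an SE of 0.12 and a 95% interval from −0.05 to 0.49. At 12138 exonic bases Pdp1 is the longest member.

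The last loop has cwo (Dmel_CG17100, FBgn0259938, chromosome 3R, 10388258 to 10400752, plus strand). It had 49.0, 44.7, 40.0 and 43.4 RPKM in DMSO 1 to 4 and 50.9, 50.6, 32.8 and 42.0 RPKM in Que 1 to 4. Que 3 was the lowest of the 8 samples, as for vri and cyc, and Que 1 and Que 2 the highest. For cwo the log2 fold change was −0.03 with an SE of 0.15 and a 95% interval from −0.36 to 0.31 (exact permutation test, p = 0.886). Its sign changed without Que 3 (0.11), without DMSO 1 (0.03) and with the length trend removed (0.05).

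**Figure D2:**
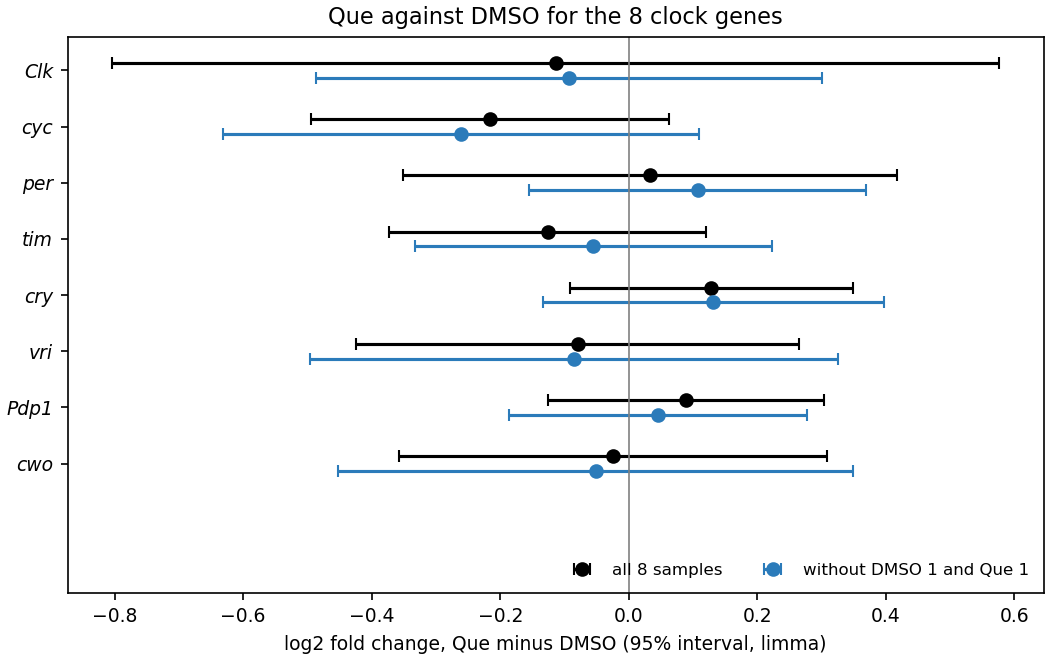
Log2 fold change (Que minus DMSO) of the 8 clock genes with its 95% interval from limma, for all 8 samples (black) and without DMSO 1 and Que 1 (blue). Every interval holds 0, and that of Clk narrows from −0.80 to 0.58 with all samples to −0.49 to 0.30 without the samples numbered 1.

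Clk was then set against per, tim and vri, the genes whose RNA peaks at the opposite time of day, to see whether the samples stood at different points of the daily cycle. For each sample the mean log2 level of per, tim and vri was subtracted from that of Clk. This difference was −4.64 in DMSO 1, −3.39 in DMSO 2, −3.60 in DMSO 3 and −3.26 in DMSO 4. It was −4.62 in Que 1, −3.36 in Que 2, −3.55 in Que 3 and −3.57 in Que 4. DMSO 1 and Que 1 had nearly the same value and stood 1.02 below the nearest of the 6 others, a 2.03-fold step, while the others spanned −3.60 to −3.26. The groups did not stand apart in this measure, with means of −3.72 ± 0.63 for DMSO and −3.78 ± 0.57 for Que (SD, n = 4 each). With the length trend removed, both samples numbered 1 stood at −4.63 and the others between −3.60 and −3.26. This correction could hardly change the difference and is no check on it. It takes similar values from genes of similar exonic length, here 4516 bases for Clk, 4527 for per, 4739 for vri and 6181 for tim.

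**Figure D3:**
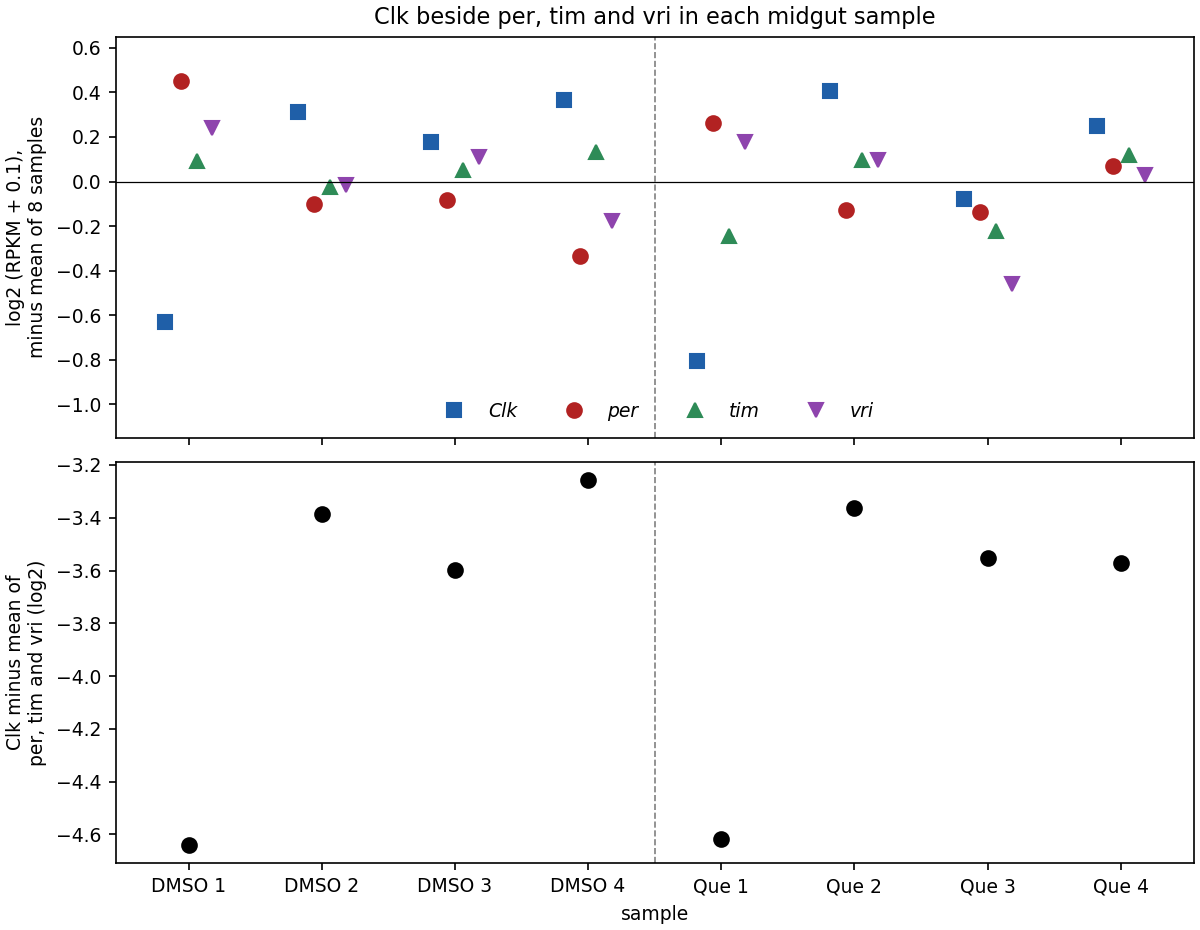
Top, log2(RPKM + 0.1) of Clk, per, tim and vri in each sample minus the mean over the 8 samples, and bottom, the log2 level of Clk minus the mean of per, tim and vri, with a dashed line between the DMSO and Que samples. DMSO 1 and Que 1 stand at −4.64 and −4.62, and the other samples between −3.60 and −3.26.

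The samples numbered 1 did not show all the antiphase genes moving together. Against the mean of the 3 other samples of its group, Clk was 0.517-fold in DMSO 1 and 0.481-fold in Que 1. In the same samples per was 1.54-fold and 1.25-fold, and vri was 1.199-fold and 1.204-fold. By contrast tim was 1.03-fold in DMSO 1 and 0.839-fold in Que 1. The cry gene, whose RNA peaks near that of Clk in fly heads, was 1.03-fold and 1.02-fold, so it did not follow Clk. Of the remaining targets of CLK and CYC, cwo was 1.15-fold and 1.22-fold and Pdp1 1.01-fold and 1.14-fold.

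Many genes outside the clock also set these samples apart. Both samples numbered 1 lay below the 6 others in 1 of 8 members (Clk) and in 10.6% of all genes tested. They lay above the others in 2 members (per and vri) and in 11.1% of all genes. The summed level of 7 visceral muscle markers was 769.8 RPKM in DMSO 1 and 807 RPKM in Que 1 against 883 to 1321 RPKM in the others. Of these markers, Mhc, up, sls and Act57B were lowest in both samples, while Tm2, Mlc2 and wupA did not separate them. The 8 enteroendocrine markers summed to 1379.5 and 1576 RPKM against 1089.5 to 1209 RPKM. Most of this sum was Tk, at 882 RPKM in DMSO 1 and 1001 RPKM in Que 1. Like Tk, AstC (60.6 and 71.8 RPKM) and CCHa2 (212 and 262 RPKM) were highest in these samples. AstA was instead lowest in them (61.9 and 72.7 RPKM, others 73.6 to 115.6 RPKM), and pros, NPF, Dh31 and CCHa1 did not separate them. The 6 Malpighian tubule markers summed to 17.9 and 17.6 RPKM against 19.2 to 30.1 RPKM, but none of them alone was lowest in both samples. Oatp58Da, most of the sum, had 14.7 RPKM in DMSO 1, 16.2 RPKM in Que 1 and 13.1 RPKM in Que 4. The 6 progenitor markers (55.8 and 58.5 RPKM, others 46.1 to 65.6 RPKM) and the 7 enterocyte markers (9826 and 11111 RPKM, others 7649 to 12118 RPKM) did not separate them. The ovary marker osk had 1.55 RPKM in DMSO 1, 0.02 to 0.04 RPKM in the other DMSO samples and 0 in all Que samples. The part of these cell types, of the hour of dissection and of the library itself in the values of Clk, per and vri was not tested. Over all genes, only 2 of the 4 same-numbered pairs had deviations from their group means correlated over 0.1. The likeness of DMSO 1 and Que 1 was noticed in these values.

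Across the 8 samples, 7 relations between members were computed on log2 levels, with exact permutation p-values and Benjamini-Hochberg adjustment over the 7. None had an adjusted p under 0.05. By Pearson's r the strongest was that of Clk and per, with r = −0.83 (n = 8, exact permutation p = 0.0174, adjusted p = 0.122) and Spearman's rho = −0.67 (exact permutation p = 0.0831, adjusted p = 0.194). Without DMSO 1 and Que 1, the 2 samples farthest from the median of Clk, r was −0.19 (exact permutation p = 0.682), so on these values the relation rested on these samples. With the length trend of each sample removed, r was −0.93 over the 8 samples (exact permutation test, adjusted p = 0.0122). It was −0.74 over the 6 others (n = 6, exact permutation p = 0.0931, adjusted p = 0.651). Clk and per have nearly equal exonic lengths (4516 and 4527 bases), so the correction takes nearly the same value from both in each sample. Removing such a shared part can by itself make r more negative. The corrected r is therefore no independent support for the relation.

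The other relations had a smaller r, though by Spearman's rho that of per and vri was the strongest of the 7. As measured, not all had the direction of the daily peaks, and several moved with the length correction. With 4739 exonic bases vri is close in length to Clk and per, so the same limit holds for its corrected r with them. For Clk and vri r was −0.35 (n = 8, exact permutation p = 0.406, adjusted p = 0.555) and rho −0.48 (exact permutation p = 0.243, adjusted p = 0.340). Without the same 2 samples r of Clk and vri was 0.69, and with the length trend removed it was −0.74 over the 8 samples. Clk and tim, with opposite peaks, had a positive r of 0.55 (n = 8, exact permutation p = 0.0995, adjusted p = 0.232) and rho of 0.67 (exact permutation p = 0.0831, adjusted p = 0.194), and r was 0.85 without DMSO 1 and Que 1. With the length trend removed, r of Clk and tim was 0.15. For Clk and cry r was −0.29 (n = 8, exact permutation p = 0.474, adjusted p = 0.555) and rho −0.48 (exact permutation p = 0.243, adjusted p = 0.340), and r was −0.36 without these samples. Of the genes with peaks at the same time, per and vri had r = 0.65 (n = 8, exact permutation p = 0.0779, adjusted p = 0.232) and rho = 0.86 (exact permutation p = 0.0107, adjusted p = 0.0750), and r was 0.39 without DMSO 1 and Que 1 and 0.73 over the 8 samples with the length trend removed. The pair per and tim had r = −0.16 (n = 8, exact permutation p = 0.720, adjusted p = 0.720) and rho = −0.26 (exact permutation p = 0.536, adjusted p = 0.626), and r was −0.016 without these samples. For tim and vri r was 0.31 (n = 8, exact permutation p = 0.476, adjusted p = 0.555) and rho −0.14 (exact permutation p = 0.752, adjusted p = 0.752), and r was −0.13 without Que 1 and Que 3, the samples farthest from the median of tim. Without DMSO 1 and Que 1 it was 0.74, and with the length trend removed it was −0.081 over the 8 samples, so its sign depended on the samples and the correction.

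Of 10190 other genes with at least 10 reads in each sample, the most alike to Clk over the 8 samples were Lap1 (r = 0.983), Sply (r = 0.976), which encodes sphingosine-1-phosphate lyase, and CycT (r = 0.973), a cyclin of transcription elongation. In Lap1 the range was 1.85 to 4.16 RPKM, close to that of Clk. An r of at least 0.9 with Clk was found for 1.92% of these genes and an r of −0.9 or lower for 1.73%, so a broad set of genes shared or mirrored its pattern. The pattern of tim was rarer, with 0.177% and 0.108%. Its nearest genes were mib1 (r = 0.971), a ubiquitin ligase of Notch signaling, Sdic2 (r = 0.962), a member of a repeated gene family whose reads are uncertain, and nonA-l (r = 0.933). These values describe 8 samples, which differed in depth (27253832 to 35619139 reads) and in their trend on gene length (rho from −0.24 to 0.34).

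Other genes of the clock pathway were described in 5 lists of 33 genes, all of them tested. None had an adjusted p under 0.05 (limma), 1 was higher at an unadjusted p under 0.05 and 0 were lower, and in 0 of 33 the groups did not overlap. The 1 gene of 33 stands beside 3.62% of all genes at an unadjusted p under 0.05, so this count is near the background. By direction, 8 log2 fold changes were positive and 25 negative, with a median of −0.05 against −0.02 over all genes. The share of negative changes over all genes is not given here. The values of these genes also keep the length trend of the samples (rho −0.24 in Que 1 and in Que 3), whose part was not tested. These signs, and those of the single lists below, are thus no result about the pathway.

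The gene past the unadjusted threshold was jet, whose F-box protein takes part in the destruction of TIM after light. It had 4.41, 3.75, 5.05 and 4.33 RPKM in DMSO 1 to 4 and 5.19, 4.99, 6.64 and 5.42 RPKM in Que 1 to 4. Only Que 2 lay within the DMSO range, below DMSO 3. Its log2 fold change was 0.33 with an SE of 0.14 (limma, unadjusted p = 0.0362 and adjusted p = 0.946; exact permutation test, p = 0.0571). The other 7 genes of protein turnover, among them slmb, the F-box gene for PER, ranged from −0.33 to 0.09.

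Of 8 kinase and phosphatase genes, 1 log2 fold change was positive and 7 were negative, all between −0.15 and 0.07. They hold dco, also called dbt, the casein kinase that marks PER for destruction, at 29.5 ± 2.32 RPKM for DMSO and 27.1 ± 4.46 RPKM for Que (SD, n = 4 each). The largest change was that of wdb, a regulatory subunit of protein phosphatase 2A, at −0.15 (standard error 0.11, exact permutation test, p = 0.257). In CkIIalpha, the catalytic subunit of casein kinase 2, DMSO 1 (64.7 RPKM) and Que 1 (68.8 RPKM) again stood above the others (36.6 to 48.7 RPKM), and in CkIIbeta, its regulatory subunit, below them. These pathway genes, like the others named only for their role, were chosen after their values were seen. In all, the samples numbered 1 were the lowest in 3 and the highest in 3 of the 33 genes, which is near the share among all genes.

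Of 7 regulators of transcription and translation, 6 log2 fold changes were negative. Here the largest was nocte, a gene of temperature entrainment, at −0.25 (standard error 0.14, exact permutation test, p = 0.143). The genes tyf and Atx2, whose proteins promote the translation of per, had −0.13 and −0.22. Of 6 relatives of clock proteins, such as timeout, the paralog of tim, and phr6-4, a photolyase related to CRY, 5 log2 fold changes were negative, and phr6-4 had a positive one of 0.16. In this list the largest was Met, a juvenile hormone receptor, at −0.17 (standard error 0.24, exact permutation test, p = 0.657).

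Of the 4 output genes, to and Pdf had the widest errors. The gene to (takeout), a clock-controlled gene of feeding, had 9.14, 25.6, 11.2 and 72.0 RPKM in DMSO 1 to 4 and 23.4, 21.9, 78.3 and 36.9 RPKM in Que 1 to 4. High and low samples stood in both groups, and the change of 0.74 on the log2 scale, with an SE of 0.65, was within this spread (exact permutation test, p = 0.429). The summed level of 6 fat body markers was 41.6 to 60.7 RPKM with DMSO and 38.4 to 79.3 RPKM with Que, highest in Que 3 like to. It was also 60.2 RPKM in DMSO 1 and 56.0 RPKM in DMSO 3, where to was lowest, against 60.7 RPKM in DMSO 4, where to was high. Its part was not tested. Pdf, the neuropeptide of clock neurons, had 0 to 6 reads per sample, so that a change was not detectable at this depth. Its receptor gene Pdfr stood at 1.34 ± 0.191 RPKM for DMSO and 1.63 ± 0.248 RPKM for Que (SD, n = 4 each, log2 fold change 0.26, exact permutation test, p = 0.114).

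**Figure D4:**
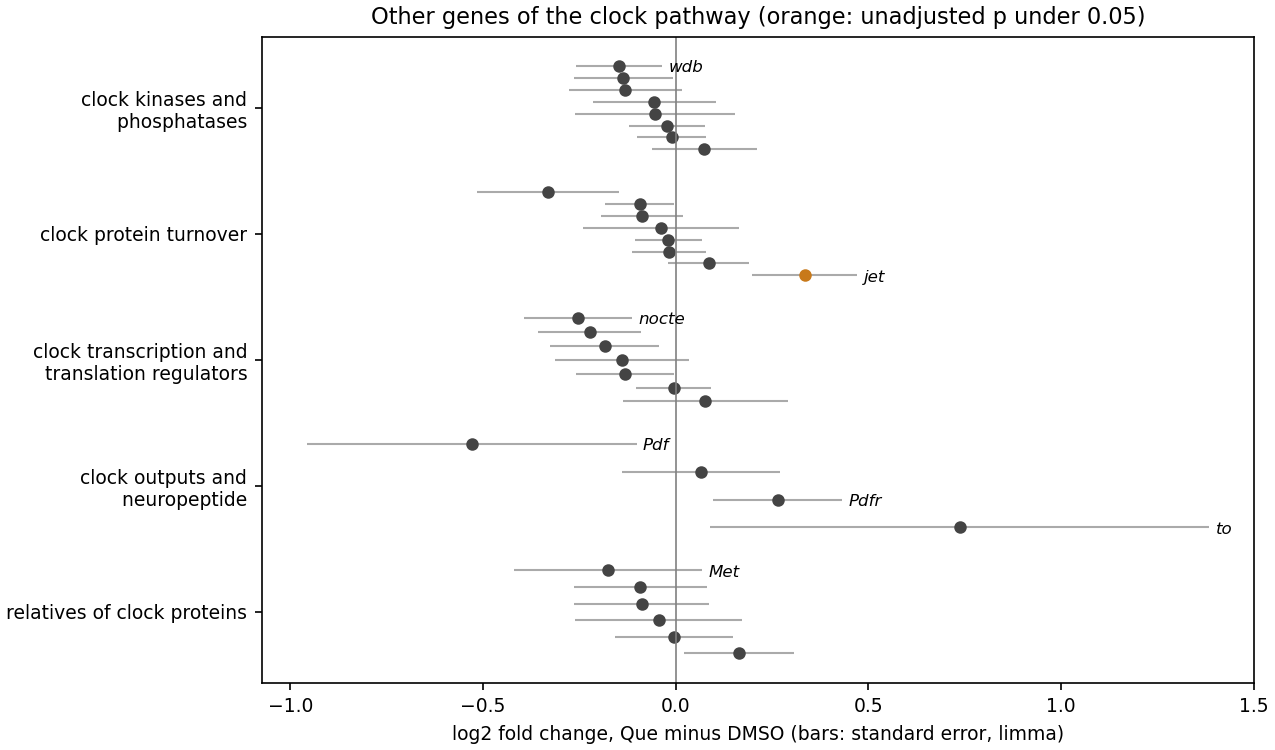
Log2 fold change (Que minus DMSO) with its standard error for 33 other genes of the clock pathway in 5 lists, with jet, the gene with an unadjusted p under 0.05, in orange. Most points lie between −0.33 and 0.33 and to (0.74) and Pdf (−0.53) lie farther out with wide errors.

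Markers were read to check the tissue. The midgut genes alphaTry (3051 to 4867 RPKM), a digestive trypsin, and Myo31DF (51.9 to 73.4 RPKM), a myosin of enterocytes, were high in all samples. The 7 enterocyte markers summed to 7649 to 9826 RPKM with DMSO and 9586 to 12118 RPKM with Que. Of their log2 fold changes 5 were positive and 2 negative, 1 at an unadjusted p under 0.05 (limma). The 6 progenitor markers summed to 55.8 to 64.0 RPKM and 46.1 to 65.6 RPKM. The part of these cell types in the clock gene levels was not tested. The photoreceptor markers were near 0, with ninaE, the main rhodopsin gene, at 0.04 to 0.28 RPKM and Arr1 at 0 in 6 samples, while norpA, also used outside the eye, made up most of their sum. The photoreceptor list summed to 3.46 to 4.06 RPKM with DMSO and 2.85 to 4.18 RPKM with Que, and 4 neuron markers to 12.3 to 12.8 RPKM and 10.3 to 12.1 RPKM. In the ovary list bcd was at 0 in 6 samples, while vas had 0.55 to 2.45 RPKM, with 40 to 189 reads, and was highest in DMSO 1.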

How the data were processed

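RNA of whole midguts was sequenced in 8 samples. The authors filtered the reads with Trimmomatic 0.36, collapsed duplicates to consensus sequences, aligned these with STAR 2.5.3a to the ISO1 genome, counted them with featureCounts and deposited RPKM values, while the strand setting and the handling of reads with several alignments are not given in the sources used here. RPKM times exonic length and the assigned reads of the sample, inferred from its smallest value as 1 read, gave whole reads (tolerance 0.01) for 100% of values. The 13249 genes whose mean reached 0.1 RPKM were compared as log2(RPKM + 0.1) in R 4.3.3 with limma 3.58.1, an intensity trend and Benjamini-Hochberg adjustment. Nothing in the labels says that samples came from separate cultures, so p-values measure the spread between samples. Exact permutation tests ran in SciPy 1.17.1 under Python 3.11.15 with pandas 2.3.3 and NumPy 2.4.6, and matplotlib 3.10.9 drew the figures.

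Named were all members, of each pathway list the genes at an unadjusted p under 0.05 or else the largest change with at least 10 reads per sample, and the 3 genes most alike to Clk and to tim. Members and lists were chosen with earlier results of these data known. All 8 members had the same start and end in the table, RefSeq (Release 6 plus ISO1 MT) and Ensembl annotation, and dbt was matched through its synonym dco. The choices varied were the pseudocount (1 or 0.01), the filter (1 RPKM or none), median-of-ratios scaling, limma voom on recovered reads (0 genes at an adjusted and 450 at an unadjusted p under 0.05), a per-sample loess correction for gene length (span 0.5), a replicate block and each sample left out. The fits without both samples numbered 1 were added after the data were seen. The fit was tested on simulated data.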

Additional observations from a re-analysis of the deposited data

Results flagged for a closer look

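In 28 groups of 4 samples, the gap of the farthest sample was compared with the range of its group, where chance alone flags about 1 in 20 groups, or 1.4 here, and 1 was found. It was the level of Clk minus that of per, tim and vri in the Que group, where Que 1 stood at −4.62 and the others at −3.57 to −3.36, a gap of 0.835 of the range. DMSO 1, at −4.64, lay as low in its own group.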

How the results depend on the processing

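For the members, 0 adjusted p-values passed 0.05 under any of the alternatives run. The log2 fold changes of cyc, tim, cry and Pdp1 kept their sign in all of them. With the length trend removed, cwo turned to 0.055 and the r of tim and vri to −0.081. The r of Clk and per then had an adjusted p under 0.05 (exact permutation test) at −0.93, with the limit set by their nearly equal lengths. Without both samples numbered 1, the r of Clk and vri was 0.69, and 0.24 with the length trend removed too. Both of these settings were chosen after seeing the data.

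With each sample left out, the log2 fold changes ranged from −0.34 to 0.14 for Clk, −0.31 to −0.12 for cyc, −0.072 to 0.19 for per, −0.15 to 0.060 for vri and −0.10 to 0.11 for cwo, and r from −0.50 to 0.17 for per and tim and −0.38 to 0.72 for tim and vri. The difference of Clk from per, tim and vri between the groups ranged from −0.36 to 0.22. Over all genes, 0 to 3 had an adjusted p under 0.05 (2 with no filter) and 361 to 1195 an unadjusted one, 1195 without Que 2, against 479 with all samples and 315 with the filter at 1 RPKM. Of the 479, 223 were higher and 256 lower in Que, and with median-of-ratios scaling the numbers were 258 higher and 221 lower.

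The replicate number as a block gave 1117 genes at an unadjusted p under 0.05 and 0 adjusted. Only 2 of the 4 same-numbered pairs had deviations correlated over 0.1 (0.23 for number 1, 0.12 for number 2, 0.013 and 0.029 for the others). DMSO 3 and DMSO 4 correlated better with another number than their own. Whether same-numbered samples were handled together is not given in the labels, and a shared batch was not tested. Under the block the log2 fold change of Clk was −0.11 with a standard error of 0.12. With 0 to 6 reads per sample, depth limits Pdf.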
